A study of Mus musculus with 2 samples.

Results

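The glucocorticoid receptor gene *Nr3c1* and 8 genes known as its direct transcriptional targets or as part of its feedback loop (*Fkbp5*, *Sgk1*, *Per1*, *Dusp1*, *Klf9*, *Zbtb16*, *Hsd11b1* and *Errfi1*) were followed on mouse expression arrays of melanoma cells. Every array probe that was not a control and carried 1 of these gene names, in the array file or through its RefSeq accession, was taken. The names led to 15 of 41164 probes and to 8 of 27790 genes or transcripts. No probe matched *Zbtb16*, which encodes the transcription factor PLZF, and it was not analysed here. B16F1-GFP-M is the maternal line, B16F1 mouse melanoma cells made to express GFP. B16F1-GFP-D is a cloned line derived from it, grown from GFP-positive disseminated cells that had persisted in tumour-free mice and were sorted from pooled organs of immunised and control animals. Both lines carry GFP and were cultured in DMEM with serum, without treatment, so that no glucocorticoid was given as part of the comparison. B16F1-GFP-D therefore stands for 1 line from 1 sorted sample, which limits it as a model of dormant cells. The lines are called M and D where ratios are given.

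RNA of the lines was hybridised together to 2 Agilent 2-colour arrays with exchanged dyes. Cy5 marked M and Cy3 marked D on array 1, with the dyes exchanged on array 2. Separate cultures or extracts are not named, and the pair of arrays was therefore treated as a single replicate of each line (n = 1). No test between the lines was possible, and each standard deviation below is that between the 2 arrays, which holds dye and spot effects and no variation between cultures. All ratios are log2 of D over M. A gene was read from its brightest probe, and it counted as detected where either line lifted that probe well above background on both arrays. A gene was called higher or lower when it was past 2-fold in the same direction on each array. This rule judges size alone. The 12540 detected genes had a median ratio of -0.01, with all but the lowest and highest 5% between -0.77 and 0.89, and a pooled standard deviation between the arrays of 0.15. All 10 melanocyte markers of a list were detected, against 2 of 8 fibroblast, 3 of 8 leukocyte, 1 of 6 endothelial and none of 6 epithelial markers. Precision is limited by the small number of arrays, and bulk RNA does not tell fewer expressing cells from less RNA per cell.

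The glucocorticoid receptor is a nuclear receptor that waits in the cytoplasm, folded by HSP90 and its co-chaperones, until a steroid such as corticosterone binds. It then enters the nucleus, where it raises some genes by binding as a dimer to glucocorticoid response elements, which are palindromes of paired hexamers around a short spacer, and lowers inflammatory genes largely by acting on other factors. Among its targets, *Fkbp5* and *Dusp1* belong to negative feedback on steroid and kinase signalling. *Tsc22d3*, which encodes GILZ, is another of its classical targets.

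The promoters of the genes were searched for the consensus element, AGAACA followed by any 3 bases and TGTTCT, which reads the same on both strands. RefSeq promoter windows of 250 bases before to 50 after a start site, on the build GRCm38.p6, were listed for 7 of the genes, with 14 windows in all. *Nr3c1* and *Zbtb16* were not in the table. The full motif was found in 1 of these windows, at *Sgk1*, and in 3 of all 32851 windows, or 0.00913%. *Sgk1* has more of the windows than any other of the genes, and its other windows lack the full motif. The other windows with the motif belong to *Acnat2* and *Gm35041*. The *Sgk1* window that holds it is shown because *Sgk1* is also the gene that passed the rule of size below. It is given on the plus strand, chr10:21993640-21993889, with the motif in capitals, which begins 189 bases before the start site.

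Sgk1 promoter: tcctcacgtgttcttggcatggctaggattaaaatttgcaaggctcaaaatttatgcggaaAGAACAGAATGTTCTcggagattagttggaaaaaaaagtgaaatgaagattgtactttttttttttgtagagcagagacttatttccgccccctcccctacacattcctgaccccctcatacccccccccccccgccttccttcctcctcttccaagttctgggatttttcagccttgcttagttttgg

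With 1 mismatch allowed, no further window of these genes matched, and 54 of all windows did, or 0.164%. The single hexamer AGAACA, on either strand, was in 3 of the 14 windows, all of *Sgk1*, against 19.0% of all windows. The full motif holds this hexamer on each strand, so that 1 of these 3 windows is the one shown. Among the other direct targets described below, 0 of 34 windows held the full motif, 0 held it with 1 mismatch and 4, or 11.8%, held the hexamer. A match of letters is no evidence of binding, and elements outside these windows were not searched.

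*Klf9* had ratios of different size from its 2 probes, and *Sgk1* had 1 probe with signal and 1 near background. To tell these probes apart, the first 30 bases of each of their 60-base probes are shown. The base given is the listed start of the probe in its target transcript.

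Sgk1 probe at base 347: gtggatcctaaaattcatcttcccaagtat

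Sgk1 probe at base 2136: cagttgtcagtcaaagccgttggtgttttc

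Klf9 probe at base 1198: cgtcacaccgagttccatcccagcatgatc

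Klf9 probe at base 1999: taagtccggaactttcaaaccttgcttcgt

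Of the 8 genes with a probe, all were detected, and 1, *Sgk1*, was past 2-fold on both arrays and higher in B16F1-GFP-D. Among all detected genes, 5.02% were past 2-fold in either direction and 3.09% were higher. None was lower, against 1.94%. At 1.5-fold the rule added *Klf9*, which was lower, and so took 2 of 8 against 15.8% of all detected genes. In each direction it took 1 gene, against 8.77% higher and 7.02% lower among all detected genes. In sign, 5 of the 8 genes had ratios above 0 on both arrays (41.0% of all detected genes) and 1 had ratios below 0 (42.8%). The other two, *Nr3c1* and *Per1*, had opposite signs on the 2 arrays. The levels of the lines did not overlap over the 2 arrays for 5 of the 8 genes, which is also the case for 74.8% of all detected genes. The median ratio of the 8 genes was 0.24. Set in order, the ratios ran from *Sgk1* through *Hsd11b1*, *Dusp1*, *Fkbp5*, *Errfi1*, *Per1* and *Nr3c1* to *Klf9*. *Hsd11b1* and *Dusp1* differed by less than either of their standard deviations. *Errfi1*, *Per1* and *Nr3c1* lay within the pooled standard deviation of each other.

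**Figure D1:**
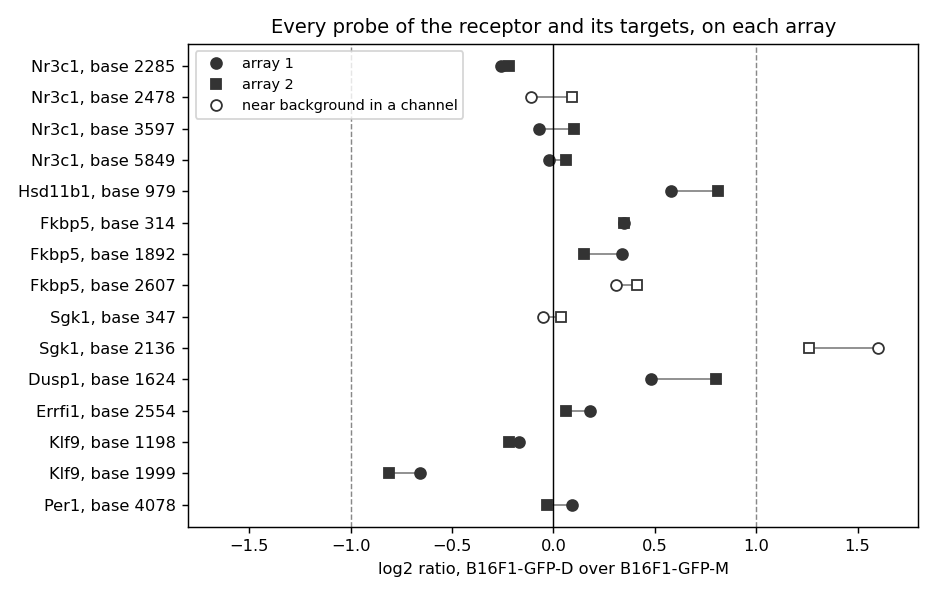
Log2 ratio, D over M (horizontal axis), of each of the 15 probes, with circles for array 1 and squares for array 2; open symbols mark probes that were not well above background in every channel, and dashed lines mark 2-fold. The *Sgk1* probe at base 2136, with 1.60 and 1.26, is past 2-fold on both arrays, and the *Sgk1* probe at base 347 lies at 0.

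The receptor itself differed little between the lines. *Nr3c1* was measured by 4 probes on chromosome 18. The brightest, from 39570619 to 39570678 of the mm9 genome on the minus strand, had normalized log2 intensities of 8.09 and 8.06 in B16F1-GFP-M and of 8.07 and 8.12 in B16F1-GFP-D on arrays 1 and 2. The values of the lines overlapped. Its ratio was 0.02 ± 0.06 (SD, 2 arrays), which is within the spread between the arrays. Of the other *Nr3c1* probes, that at base 3597 had a mean of 0.01 and that at base 2478, near background in B16F1-GFP-D on both arrays, had a mean of -0.01. The probe at base 2285 had -0.26 and -0.22. Its mean of -0.24 was larger than its standard deviation of 0.02, so that the probes of the receptor did not give 1 value, but each of the 4 means lay within 1.5-fold.

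*Hsd11b1* encodes the enzyme that regenerates active glucocorticoid from its inert 11-keto form inside the cell. Its only probe lies on chromosome 1, from 195048169 to 195048228 on mm9. Its log2 intensity was 7.25 and 7.33 in B16F1-GFP-M and 7.83 and 8.15 in B16F1-GFP-D. Both values of B16F1-GFP-D were above both of B16F1-GFP-M. The ratio was 0.58 on array 1 and 0.81 on array 2, with a mean of 0.70 ± 0.16, or 1.62-fold, and 8.17% of detected genes had a higher ratio. With 0.58 on array 1 it stayed just under 1.5-fold there. *Hsd11b2*, which encodes the enzyme of the reverse reaction, was not well above background.

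*Fkbp5* encodes FKBP51, a co-chaperone that lowers the affinity of the receptor for its ligand and is itself raised by glucocorticoids. It was read from a probe on chromosome 17, from 28574995 to 28575054, which had log2 intensities of 7.26 and 7.29 in B16F1-GFP-M and of 7.61 and 7.64 in B16F1-GFP-D. The ratio was 0.35 on each array, or 1.28-fold, with a standard deviation of 0.00 after rounding, against a pooled one of 0.15. The *Fkbp5* probes at bases 1892 and 2607 had means of 0.24 and 0.36, so that all 3 probes pointed the same way on both arrays. That at base 2607 was not well above background in B16F1-GFP-M on array 2. All 3 were below 1.5-fold as processed here. In the scanner software's ratio the means of the probes at bases 314, 1892 and 2607 were larger, with 0.55, 0.61 and 1.00.

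*Sgk1*, the serum- and glucocorticoid-regulated kinase, phosphorylates FOXO3A among other substrates, as AKT does. It had the largest difference of the 8 genes. Its detected probe on chromosome 10, from 21719390 to 21719449, had log2 intensities of 7.98 and 8.11 in B16F1-GFP-D and of 6.38 and 6.85 in B16F1-GFP-M. The ratio was 1.60 on array 1 and 1.26 on array 2, with a mean of 1.43 ± 0.24, or 2.70-fold higher in B16F1-GFP-D, and 145 of the detected genes had a higher ratio. The ratio of spot to surrounding background was 7.77 and 5.96 in B16F1-GFP-D, and 2.02 and 2.81 in B16F1-GFP-M, where the spot was not well above background on array 2. The level in B16F1-GFP-M thus rests on 1 array, and *Sgk1* was not called when genes had to be well above background in both lines. The second *Sgk1* probe starts 100840 bases upstream on mm9, and the array file lists it under another transcript identifier. It was near background in both lines on both arrays, with ratios of -0.05 and 0.04, so that it gives no ratio of its own. The same *Sgk1* probe had 2.87 in the scanner software's own ratio. The median over both *Sgk1* probes, 0.72, takes in the probe near background.

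**Figure D2:**
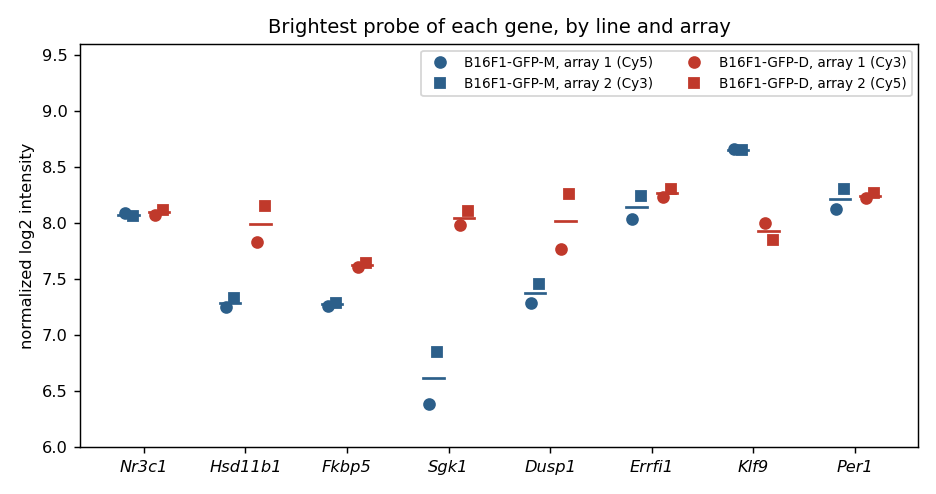
Normalized log2 intensity (vertical axis) of the brightest probe of each gene in B16F1-GFP-M (blue) and B16F1-GFP-D (red), with circles for array 1, squares for array 2 and a line at their mean. The lines are apart for *Hsd11b1*, *Fkbp5*, *Sgk1*, *Dusp1* and *Klf9* and overlap for *Nr3c1*, *Errfi1* and *Per1*; heights are not comparable between genes, since each has its own probe.

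*Dusp1* and *Errfi1* encode feedback inhibitors of kinase signalling. *Dusp1* encodes the phosphatase MKP-1, which switches off p38 and JNK, and its probe on chromosome 17, listed from 26642526 to 26642536, had log2 intensities of 7.29 and 7.46 in B16F1-GFP-M and of 7.77 and 8.26 in B16F1-GFP-D. Both values of B16F1-GFP-D were above both of B16F1-GFP-M. The ratio was 0.48 on array 1 and 0.80 on array 2, with a mean of 0.64 ± 0.22, or 1.56-fold. It was under 1.5-fold on array 1. *Errfi1* encodes MIG6, an inhibitor of the EGF receptor, and its probe on chromosome 4, from 150242526 to 150242585, had 8.04 and 8.24 in B16F1-GFP-M and 8.23 and 8.30 in B16F1-GFP-D. These values overlapped. The ratio of 0.12 ± 0.09 had the same sign on both arrays and was below the pooled standard deviation of 0.15.

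*Klf9* and *Per1* encode transcriptional regulators. *Klf9*, a Krüppel-like factor that rises early after glucocorticoids, was lower in B16F1-GFP-D. Its brightest probe on chromosome 19, from 23240138 to 23240197, had log2 intensities of 8.66 and 8.65 in B16F1-GFP-M and of 8.0 and 7.85 in B16F1-GFP-D. The lines did not overlap. The ratio was -0.66 on array 1 and -0.81 on array 2, with a mean of -0.73 ± 0.10, or 1.66-fold lower, and 5.57% of detected genes had a lower ratio. The other *Klf9* probe, which starts 801 bases upstream, had -0.17 and -0.22, in the same direction on both arrays but with a mean of -0.20. The direction of *Klf9* was thus shared by its probes and its size was not. *Per1*, a core component of the circadian clock with a classical glucocorticoid response, had 8.13 and 8.30 in B16F1-GFP-M and 8.22 and 8.27 in B16F1-GFP-D from its probe on chromosome 11, from 68922878 to 68922937. The ratio was 0.03 ± 0.08, and the lines overlapped.

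**Figure D3:**
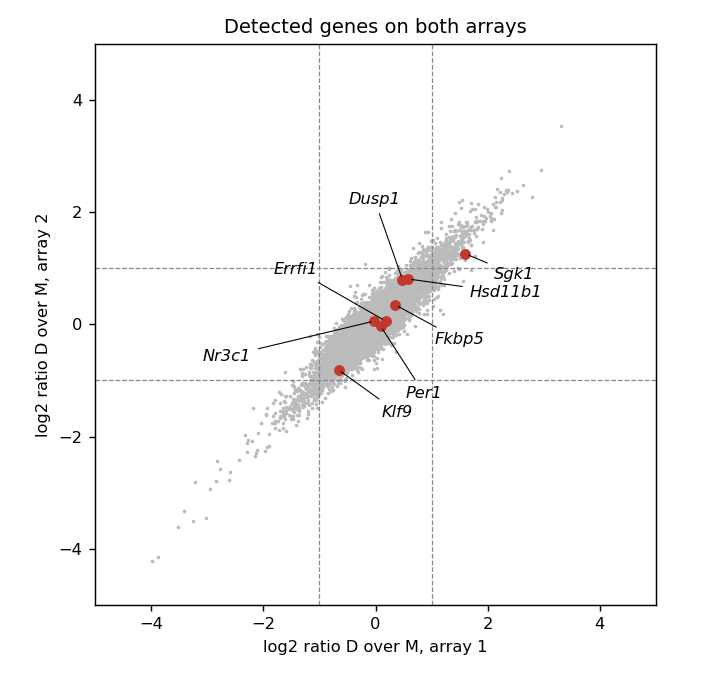
Log2 ratio of each detected gene on array 1 (horizontal axis) and array 2 (vertical axis), with the 8 genes in red and dashed lines at 2-fold. *Sgk1* is the one in the corner past 2-fold on both arrays, and *Nr3c1*, *Per1* and *Errfi1* lie near 0.

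Other direct targets of the receptor were taken from a list of 33 genes, of which 31 had a probe and 23 were detected. They went in both directions: 10 were higher and 13 were lower on both arrays, with a median of -0.24. The rule of size called 7 of them, 3 higher and 4 lower, against 5.02% of all detected genes, 3.09% higher and 1.94% lower. At 1.5-fold it called 14, 7 in each direction, against 15.8%. Higher were *Anxa1*, which encodes the anti-inflammatory protein annexin A1, with 1.39 ± 0.05, *Nfkbia*, the inhibitor of NF-κB, with 1.31 ± 0.02, and *Glul*, the glutamine synthetase, with 1.16 ± 0.21. Lower were *Cebpb* with -2.67 ± 0.14, *Ddit4* with -1.75 ± 0.13, *Txnip* with -1.47 ± 0.04 and *Tsc22d3* with -1.17 ± 0.02. *Cebpb* encodes a transcription factor, *Ddit4* an inhibitor of mTORC1 and *Txnip* an inhibitor of thioredoxin, and *Cebpb* and *Ddit4* are also known to respond to amino acid and endoplasmic reticulum stress. The second probe of *Cebpb* had -1.20, and the probes of *Tsc22d3* ranged from -1.17 to -0.39. Past 2-fold on 1 array alone were the metallothioneins *Mt1*, with 0.90 and 1.12, and *Mt2*, with 0.72 and 1.04, *Nr1d1*, with 0.95 and 1.22 from the brightest of 3 probes whose means ranged from -0.12 to 1.08, *Cebpd*, with -1.06 and -0.94, and *Klf15*, with -1.04 and -0.65. The second probe of *Mt1* had a mean of 0.17 and that of *Klf15* had -0.10. The cell cycle inhibitor *Cdkn1a*, which encodes p21CIP1, had -0.82 and -0.73. The list was written with results of these data known.

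Of 15 genes for chaperones and partners of the receptor, 3 were past 2-fold and higher in B16F1-GFP-D, against 3.09% of all detected genes. All 15 were detected in both lines, and 13 had ratios above 0 and 2 below 0 on both arrays, with a median of 0.50, where 41.0% of all detected genes had ratios above 0 on both arrays. The 3 were *Fkbp4*, with 1.42 and 1.45, *Hsp90aa1*, with 1.31 on each array, and *Hspa8*, with 1.36 and 1.10. *Fkbp4* encodes FKBP52, which competes with FKBP51 for the receptor and favours its movement to the nucleus. It was 2.70-fold higher, against 1.28-fold for *Fkbp5*. The *Fkbp5* value depends on the processing: its log2 ratio was 0.35 here and 0.55 in the scanner software's ratio. *Hsp90aa1* and *Hspa8* encode the chaperones HSP90 alpha and HSC70, which serve many other proteins as well. *Ipo13*, an importin, was the lowest of the list with -0.44. Of the 14 other FKBP genes, which include *Fkbp4*, 9 were higher on both arrays, against 41.0% of all detected genes. Past 2-fold was 1, against 5.02%, and the lowest was *Fkbpl* with -0.62.

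Of 19 genes for coactivators and corepressors of the receptor, all were detected. None was past 2-fold or 1.5-fold on both arrays, against 5.02% and 15.8% of all detected genes. The median was 0.06, from -0.60 for the histone methyltransferase gene *Ehmt2* to 0.52 for the histone deacetylase gene *Hdac1*.

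Of 13 genes of steroid supply with a probe, 4 were detected. Of these, 1 was called higher and 1 lower, against 3.09% and 1.94% of all detected genes. *Srd5a1*, whose 5-alpha-reductase acts on several steroids, glucocorticoids among them, had 1.75 and 1.69 and was called higher, but its second probe had a mean of 0.00. *Pomc*, which encodes the precursor of ACTH and melanocyte-stimulating hormone, had -1.13 and -1.03 and was called lower. *H6pd*, which supplies the cofactor of the *Hsd11b1* enzyme, had 0.19 and 0.18, and the efflux pump gene *Abcb1b* had 0.44 and 0.43. Of 8 related receptor genes, *Esrra* alone was detected, with 0.76. The mineralocorticoid receptor gene *Nr3c2*, whose product binds the same hormones, was not well above background. Of 14 inflammatory genes that the receptor is known to repress, 12 were not detected. Of the 2 detected, *Cxcl10*, a chemokine, had 2.24 and 2.62 and was called higher, against 3.09% of all detected genes. *Ccl5* had a mean of 0.32.

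**Figure D4:**
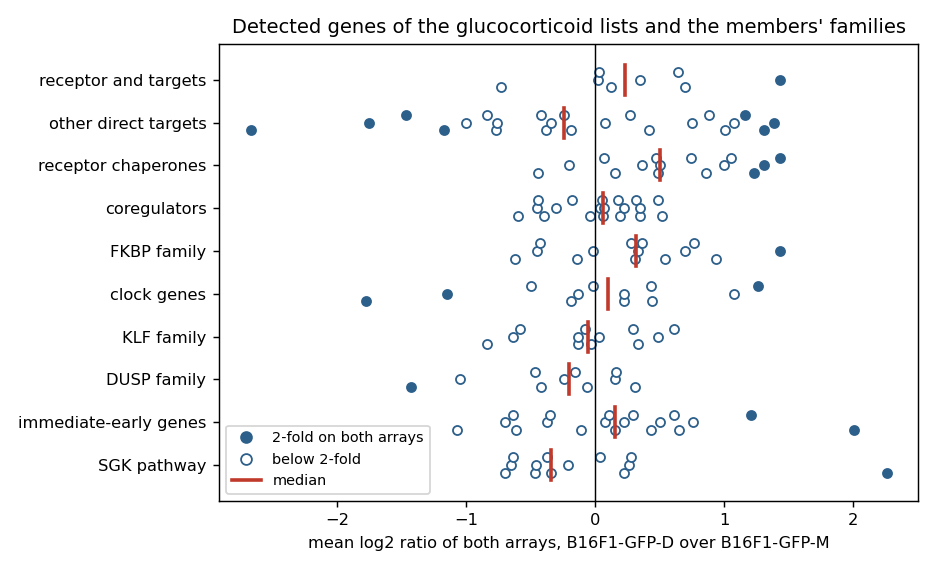
Mean log2 ratio of both arrays (horizontal axis) of each detected gene of 10 lists, filled where the gene was past 2-fold on both arrays, with a red bar at the median. The other direct targets spread from -2.67 to 1.39, the chaperones have a median of 0.50, and the coregulators lie between -0.60 and 0.52.

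Each of the target genes was also set beside the family or process it belongs to. Of the 10 other DUSP phosphatase genes with a probe, 3 were higher and 6 lower on both arrays, against 41.0% and 42.8% of all detected genes. Their means ran from -1.43 to 0.31, so that *Dusp1* with 0.64 was above all of them. *Dusp6*, which encodes a phosphatase of ERK, was called lower with -1.37 and -1.50, and *Dusp14* was the highest of the others. Of the other KLF genes, 12 were detected and none was past 2-fold, against 5.02% of all detected genes. At 1.5-fold 2 of them were lower, against 7.02% of all detected genes, and none was higher. *Klf15*, another glucocorticoid target, was the lowest of them with -1.04 and -0.65, and *Klf4* was the highest with 0.61. The second probe of *Klf15* had a mean of -0.10. 

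Around *Per1*, 12 of 16 clock genes were detected, with a median of 0.10. *Bhlhe40*, a repressor of the clock, was called higher with 1.26 ± 0.07, and 2 were called lower. Among all detected genes 3.09% were called higher and 1.94% lower. The 2 lower clock genes were *Nfil3*, with -1.78 ± 0.24, and *Dbp*, with -1.15 ± 0.02, which encode opposing regulators of the same promoters. *Per2* and *Per3* were not well above background, so that *Per1* was the one period gene detected.

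*Sgk1*, *Dusp1* and *Errfi1* respond to serum and growth factors as well as to glucocorticoids. Of 22 immediate-early genes, 19 were detected, 11 higher and 7 lower on both arrays, with a median of 0.15. Among all detected genes 41.0% were higher and 42.8% lower on both arrays, and 3.09% were called higher. *Fos* was called higher with 1.94 and 2.09 and *Egr1* with 1.10 and 1.31, and *Myc* was the lowest with -0.98 and -1.17. The means of the *Myc* probes ranged from -1.07 to -0.25. The part of serum response in the values of *Sgk1* and *Dusp1* was not tested. In the pathway of *Sgk1*, its relative *Sgk2* exceeded background clearly in B16F1-GFP-D and not in B16F1-GFP-M. Its mean log2 intensities were 8.42 in B16F1-GFP-D and 6.17 in B16F1-GFP-M. Its signal in B16F1-GFP-M was replaced by the lowest signal of any probe well above background, where that was higher. *Sgk2* was then 4.4-fold higher in B16F1-GFP-D. This is no strict lower limit. Another B16F1-GFP-M spot, that of *Sgk1* on array 2, was not well above background at 6.85. *Sgk3* had 0.04. *Rictor*, a subunit of the complex that activates SGK kinases, was the lowest of the list with -0.70, and its 8 probes ranged from -0.70 to 0.37. Of the EGF receptor genes and their ligands, 7 of 13 were detected and none was past 2-fold, against 5.02% of all detected genes. The detected ones ran from *Hbegf* with -0.45 to *Erbb3* with 0.30. *Egfr* itself was not well above background.

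**Figure D5:**
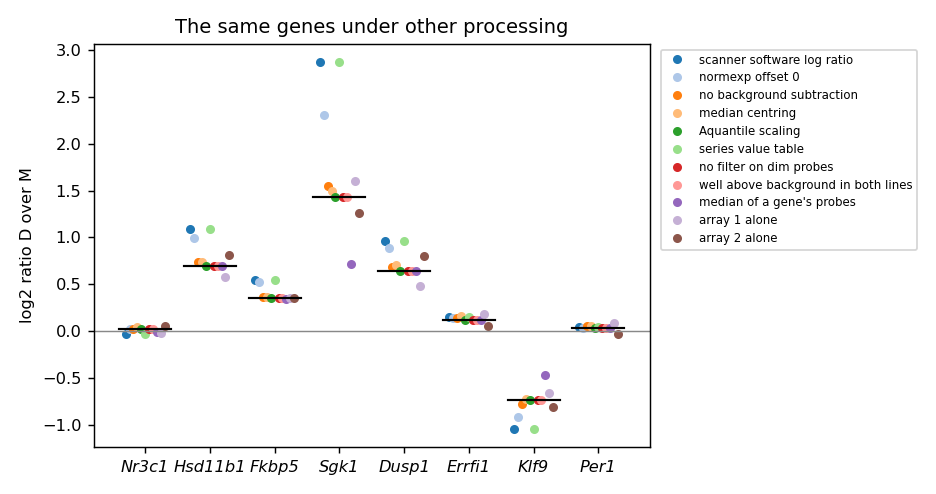
Log2 ratio, D over M (vertical axis), of the 8 genes as reported (black lines) and under 11 other ways of processing (points). *Sgk1* moves between 0.72 and 2.87 and *Klf9* between -1.04 and -0.47, each with 1 sign throughout, while *Nr3c1* stays between -0.03 and 0.06 and *Per1* between -0.03 and 0.09.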

How the data were processed

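The authors deposited raw intensity values per dye, for spots and for the background around them, without normalization. Their processing notes name Agilent Feature Extraction, version 10.7.3.1. The deposited log10 ratios of Cy5 over Cy3, in the scanner files and rounded in the series value table, are of processed signals, with 0 given on a share of the spots. They were used as alternatives, and flags gave the spots well above background.

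Of 43379 spots that are not controls, 143 on array 1 and 176 on array 2 were left out as outliers, and no spot was saturated. In R 4.3.3 with limma 3.58.1, signals were corrected by normexp with an offset of 50, which draws ratios of dim spots towards 0, and normalized by loess within each array. Levels were also scaled between the arrays by Aquantile. Ratios were turned to log2, D over M. Between 44.1% and 60.7% of spots were well above background in a channel. All 8 genes were dim: at most 35.6% of detected genes were dimmer than any of them.

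Names came from the array files and, through accessions, from RefSeq (GRCm38.p6), which matched 27192 of 28069 probes; array positions are on mm9, promoters on GRCm38.p6, and these were not mixed. The 9 genes, all lists and the tests were chosen with earlier results of these data known. From each list the called genes and the highest and lowest were named, and any gene of the other direct targets; *Hsd11b2*, *H6pd*, *Abcb1b*, *Nr3c2*, *Ccl5*, *Per2*, *Per3*, *Sgk3* and *Egfr* were named after their values had been seen. The steps were tested on simulated arrays in which only brighter spots changed, each by more than 2-fold. That does not test the rule at 2-fold or at 1.5-fold. Further computing used pandas 2.3.3 and numpy 2.4.6 under Python 3.11.15, and plots matplotlib 3.10.9.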

Additional observations from a re-analysis of the deposited data

How the results depend on the processing

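*Sgk1* was not called in 3 of the 13 alternatives. Members called numbered 0 where both lines had to be well above background, 0 where the probes of a gene were taken at their median, 0 at 3-fold and 2 at 1.5-fold. *Fkbp5*, *Sgk1*, *Dusp1*, *Klf9*, *Hsd11b1* and *Errfi1* kept their sign in the 11 alternatives that give a ratio, and *Nr3c1* and *Per1*, near 0, changed sign in 4 and 1 of them. These are not all separate checks: Aquantile scaling and both changes of the filter on dim probes leave a gene's ratio as it is by construction, and the series value table repeats the scanner software's ratio. Over the 11, *Hsd11b1* ran from 0.58 to 1.09 and *Dusp1* from 0.48 to 0.96. Their highest values came from the scanner software's ratio, where both genes were past 1.5-fold on each array. With median centring, which leaves dye effects that vary with brightness, 1 member was higher and 0 were lower on both arrays. Members lower numbered 2 with the scanner software's ratio, with the series value table and with either array alone. All detected genes called numbered 630 as reported, 1356 with the scanner software's ratio, 1352 with the series value table, 1077 with an offset of 0, 64 with median centring, 1980 at 1.5-fold and 123 at 3-fold. The median of the other direct targets was -0.50 with the scanner software's ratio and with the series value table, -0.45 with an offset of 0, -0.30 with median centring, -0.28 if no background was subtracted, -0.14 with no filter on dim probes, -0.34 where both lines had to be well above it and between -0.16 and -0.15 with 1 array alone. Of that list 11 were called with the scanner software's ratio and with the series value table, 1 with median centring, 14 at 1.5-fold and 2 at 3-fold. The causes were not tested beyond the thresholds themselves. No paired analysis was possible because there is 1 replicate (n = 1) of D and of M. Signal over background limits *Sgk1* and the other dim genes.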
